A study of Rattus norvegicus with 5 samples.

Results

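The glutamate transporter genes and glutamine synthetase were described in nuclei of the rat ventral tegmental area (VTA). They comprised the 3 vesicular glutamate transporters *Slc17a6*, *Slc17a7* and *Slc17a8* (VGLUT2, VGLUT1 and VGLUT3), the 3 plasma membrane transporters *Slc1a1*, *Slc1a2* and *Slc1a3* (EAAC1, GLT-1 and GLAST), and *Glul*, which encodes glutamine synthetase. The genes were chosen by name and are 7 of the 32883 genes counted, each found under 1 Ensembl identifier. Counts came from all barcodes with at least 1000 unique molecular identifiers (UMIs, so that molecules and not reads are counted), more than 200 and fewer than 5000 genes and less than 5% of UMIs from mitochondrial genes.

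Vesicular transporters load glutamate into synaptic vesicles, and the presence of 1 of them is the usual mark of a neuron that can release glutamate. Plasma membrane transporters clear glutamate from the extracellular space. Astrocytes do most of this with GLT-1 and GLAST and turn the glutamate into glutamine through glutamine synthetase, whereas EAAC1 is best known from neurons. In the VTA, glutamate neurons with *Slc17a6* lie among dopamine and GABA neurons, and some dopamine neurons carry *Slc17a6* as well.

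The data were single-nucleus RNA sequencing libraries from 5 adult male Sprague-Dawley rats, 1 library per rat, made from frozen VTA tissue punches of both hemispheres pooled within each rat. All libraries belong to 1 condition, labelled saline, and the study calls these rats drug-naïve, so that every comparison was between classes of nuclei and none between treatments. A punch holds whatever cells lie in it, and all 5 animals were male. By the rule above 22084 barcodes were nuclei, between 1813 and 9336 per rat, and 21016 were left after removal of likely doublets.

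Nuclei were clustered without the 7 genes and without 19 further genes of glutamate and glutamine handling, and classes were named from marker genes that include none of them. The classes held 914 dopaminergic-like, 2572 GABAergic-like, 162 serotonergic-like and 1348 other neurons, 1162 astrocytes, 8760 oligodendrocytes, 778 oligodendrocyte precursor cells (OPCs), 631 microglia and 424 vascular nuclei. A further 4265 nuclei were in clusters with mixed markers or in neuron sub-clusters with much glial RNA and were left out. Summed dopaminergic markers stood at 32.1 UMIs per 10000 in dopaminergic-like, 11.1 in serotonergic-like, 6.26 in other and 1.63 in GABAergic-like neurons, and summed GABAergic markers at 6.82 in GABAergic-like, 2.39 in other and 0.481 in dopaminergic-like neurons. Other neurons were those of sub-clusters whose marker lists were too low, too incomplete or too mixed for a name, and they were not free of these markers. All 3 GABAergic markers were raised over oligodendrocytes in the sub-cluster led by *Sox6* and 2 of them in that led by *Slc26a7*, and 3 dopaminergic markers were raised in each of those led by *Reln* and *Adgrv1*. Libraries held 10193355 to 88576210 UMIs, with median totals per nucleus of 1605.5 to 3526 UMIs. Rat 3 had the shallowest library, with 2284 nuclei by the rule, and rat 1 had the fewest, with 13 dopaminergic-like nuclei, so dopaminergic-like values are from 4 rats because sums of fewer than 20 nuclei were not used. Any pair of libraries shared 0 to 16 barcodes.

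Levels are UMIs of a gene per 10000 UMIs of the class, summed within each rat, as mean ± SD over rats. They are compared within a gene and between classes, not between genes, because capture differs between genes. Free RNA, measured in barcodes too small to be nuclei, held *Slc17a6* at 0.71 to 2.46 per 10000 UMIs over the 5 rats, *Slc1a3* at 1.81 to 4.61 and *Glul* at 3.56 to 5.16. Free RNA was estimated to supply 6.90% to 21.9% of all UMIs of oligodendrocytes, and the highest estimate was in rat 2. The estimate takes all UMIs of 6 neuronal genes in that class as free RNA. A low share of nuclei with a UMI in a class is therefore read against the share in oligodendrocytes.

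Classes were compared in edgeR on sums per rat with the rat as a block. The classes were made from the same nuclei, which the p-values do not take into account, and comparisons that name the same class share its sums.

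**Figure D1:**
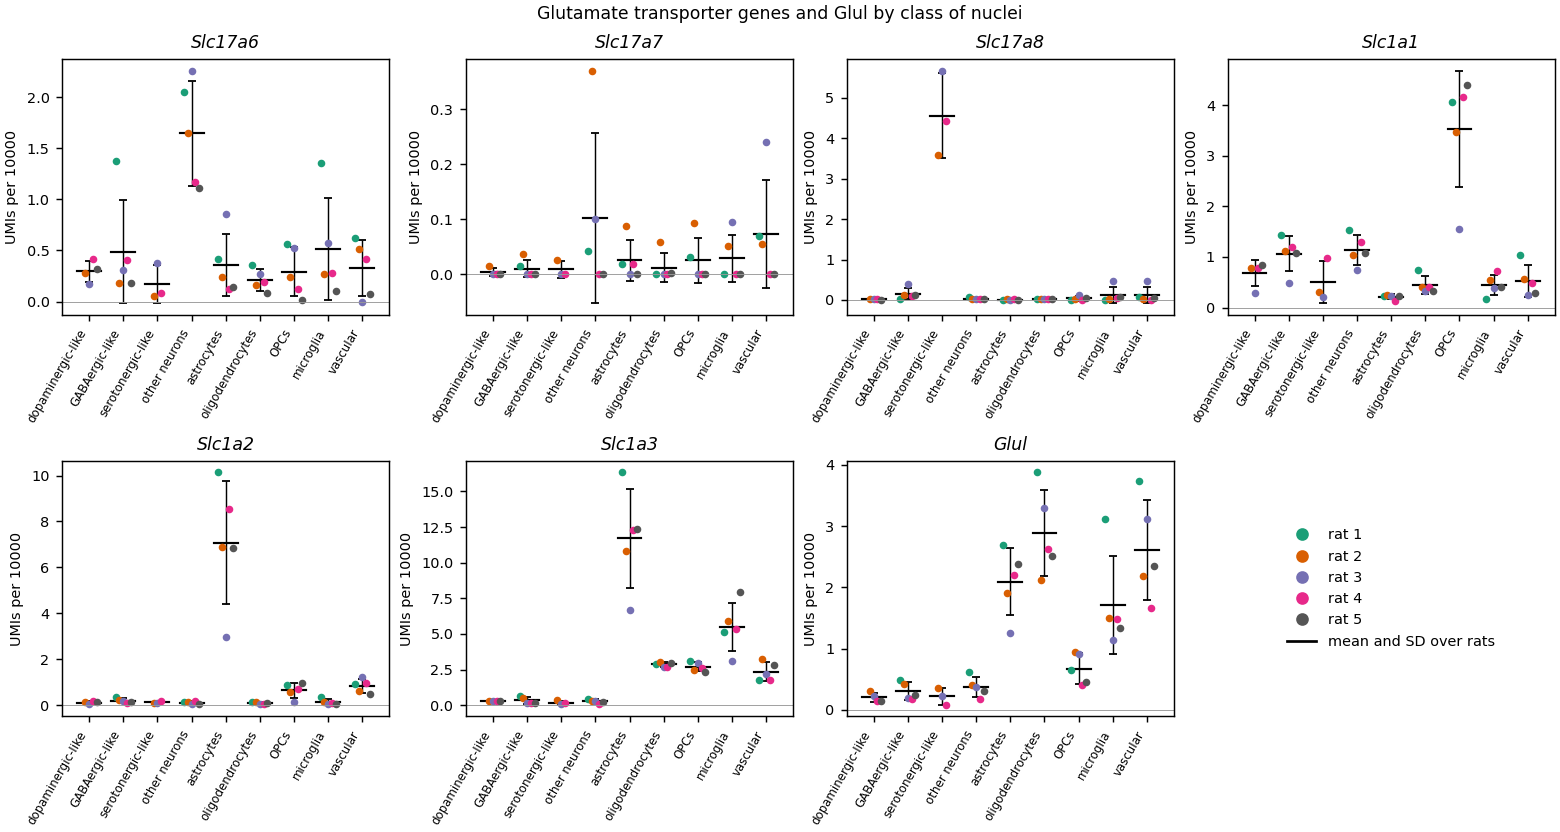
Level of each of the 7 genes (UMIs per 10000 UMIs of the class, linear axes that differ between panels) in 9 classes of nuclei, with 1 point per rat and the mean and SD over rats. *Slc17a6* was highest in other neurons (1.64), *Slc17a8* in serotonergic-like neurons (4.56), *Slc1a1* in OPCs (3.53), *Slc1a2* and *Slc1a3* in astrocytes (7.08 and 11.7) and *Glul* in oligodendrocytes (2.89).

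*Slc17a6*, the vesicular transporter of most subcortical glutamate neurons, was highest in the other neurons. In rats 1 to 5 the level there was 2.04, 1.64, 2.26, 1.17 and 1.11 UMIs per 10000, a mean of 1.64 ± 0.513 (SD, n = 5 rats). In GABAergic-like neurons it was 1.38, 0.178, 0.305, 0.406 and 0.183, a mean of 0.490 ± 0.505 (SD, n = 5 rats), and in dopaminergic-like neurons of rats 2 to 5 it was 0.281, 0.170, 0.413 and 0.321, a mean of 0.296 ± 0.101 (SD, n = 4 rats). For the Slc17a6 level in dopaminergic-like nuclei the mean was 0.923 ± 1.32 when nuclei were typed one by one, 0.600 ± 0.565 with the sub-clusters rich in glial RNA kept, and 0.177 ± 0.0865 after subtraction of free RNA. The other neurons were above the GABAergic-like neurons in every rat, although GABAergic-like neurons of rat 1, a library with 90 such nuclei, lay above other neurons of rats 4 and 5. The remaining rats of both classes did not overlap with the other neurons.

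The edgeR log2 fold change of *Slc17a6* was 2.22 ± 0.196 (SE, 4 rats, adjusted p = 6.55e-07) for other against dopaminergic-like neurons and 2.20 ± 0.278 (SE, 5 rats, adjusted p = 0.000197) for other against GABAergic-like neurons. The difference between GABAergic-like and dopaminergic-like neurons was -0.33 ± 0.196 (SE, 4 rats) and did not pass the edgeR test (adjusted p = 0.245). Its sign is opposite to that of the means above, which include rat 1 (1.38) for GABAergic-like neurons. That rat was not in this fit. Over 16 alternative settings that last value ranged from -1.44 to -0.10, and it passed the threshold in 5 of them.

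At least 1 *Slc17a6* UMI was found in 46.4% of other neurons (exact 95% interval 43.7% to 49.1%, counting error only), 15.0% of dopaminergic-like and 10.7% of GABAergic-like neurons. Neurons were deeper than glia, with a median of 5729 UMIs against 2891 in oligodendrocytes, where 5.41% of nuclei had a *Slc17a6* UMI. After every nucleus was thinned to 1000 UMIs the shares were 14.3%, 3.39% and 2.68% in the 3 neuron classes and 1.85% in oligodendrocytes. The thinned shares in astrocytes (3.18%), microglia (3.65%) and vascular nuclei (4.48%) lay near that of dopaminergic-like neurons, and in glia such shares were not read as expression. The serotonergic-like neurons had a mean *Slc17a6* level of 0.172 ± 0.182 (SD, n = 3 rats). Microglia had the highest mean after the other neurons, at 0.514 ± 0.497 (SD, n = 5 rats). The other neurons were above microglia in every rat, although microglia of rat 1 (1.35) lay above other neurons of rats 4 and 5. No neighbouring classes below the other neurons were separated beyond their spread.

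Over the neuron sub-clusters, taken over all their nuclei, *Slc17a6* ranged from 0.0509 to 2.91 UMIs per 10000. Among the other neurons it was 2.91 per 10000 UMIs in 191 nuclei led by *Ttc29*, 1.86 in 380 nuclei led by *Reln*, 1.62 in 266 nuclei led by *Adgrv1*, 1.01 in 257 nuclei led by *Slc26a7* and 0.472 in 113 nuclei led by *Rbm20*. The *Ttc29* nuclei came mostly from rat 2 (135) and rat 3 (47), where the level was 2.88 and 3.37, against 1.82 and 3.18 in the *Reln* nuclei of the same rats, so in rat 3 this pair was close. It was 0.10 in 141 nuclei led by *Sox6*, which were thus among the other neurons without being rich in any vesicular transporter (*Slc17a7* 0.01 and *Slc17a8* 0.02). The *Slc26a7* sub-cluster also held the GABA synthesis gene *Gad2* at 5.96 and the vesicular GABA transporter *Slc32a1* at 0.776 per 10000 UMIs, with *Gad1* at 0.145. By rat, *Gad2* was 6.45, 2.78, 5.96 and 6.18 and *Slc32a1* was 1.22, 1.86, 0.339 and 0.380 in rats 2 to 5. Free RNA held *Gad2* at 1.88 to 4.06 and *Slc32a1* at 1.46 to 10.2 per 10000 UMIs. In the *Reln* sub-cluster of the same rats *Slc32a1* was 0.155, 0.424, 0.0492 and 0.107, lower in each rat. How much of the *Slc32a1* level of the *Slc26a7* sub-cluster came from free RNA was not tested.

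The dopaminergic-like neurons fell into 2 sub-clusters. *Slc17a6* was 0.517, 0.385, 0.575 and 0.478 in rats 2 to 5 in the one led by *Aldh1a1*, an aldehyde dehydrogenase gene of some dopamine neurons, and 0.0903, 0.116, 0.188 and 0.147 in the one led by *Tmem207*. All 4 rats were higher in the *Aldh1a1* sub-cluster, with no overlap, by a mean of 0.353 ± 0.0686 (SD, n = 4 rats), while *Th* was 6.46 and 5.60 in the pair. Among GABAergic-like neurons only the sub-cluster led by *Npas1*, with 1111 nuclei, exceeded 0.2 UMIs per 10000, at 0.53 over all its nuclei, and rat 1 was highest there too.

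**Figure D2:**
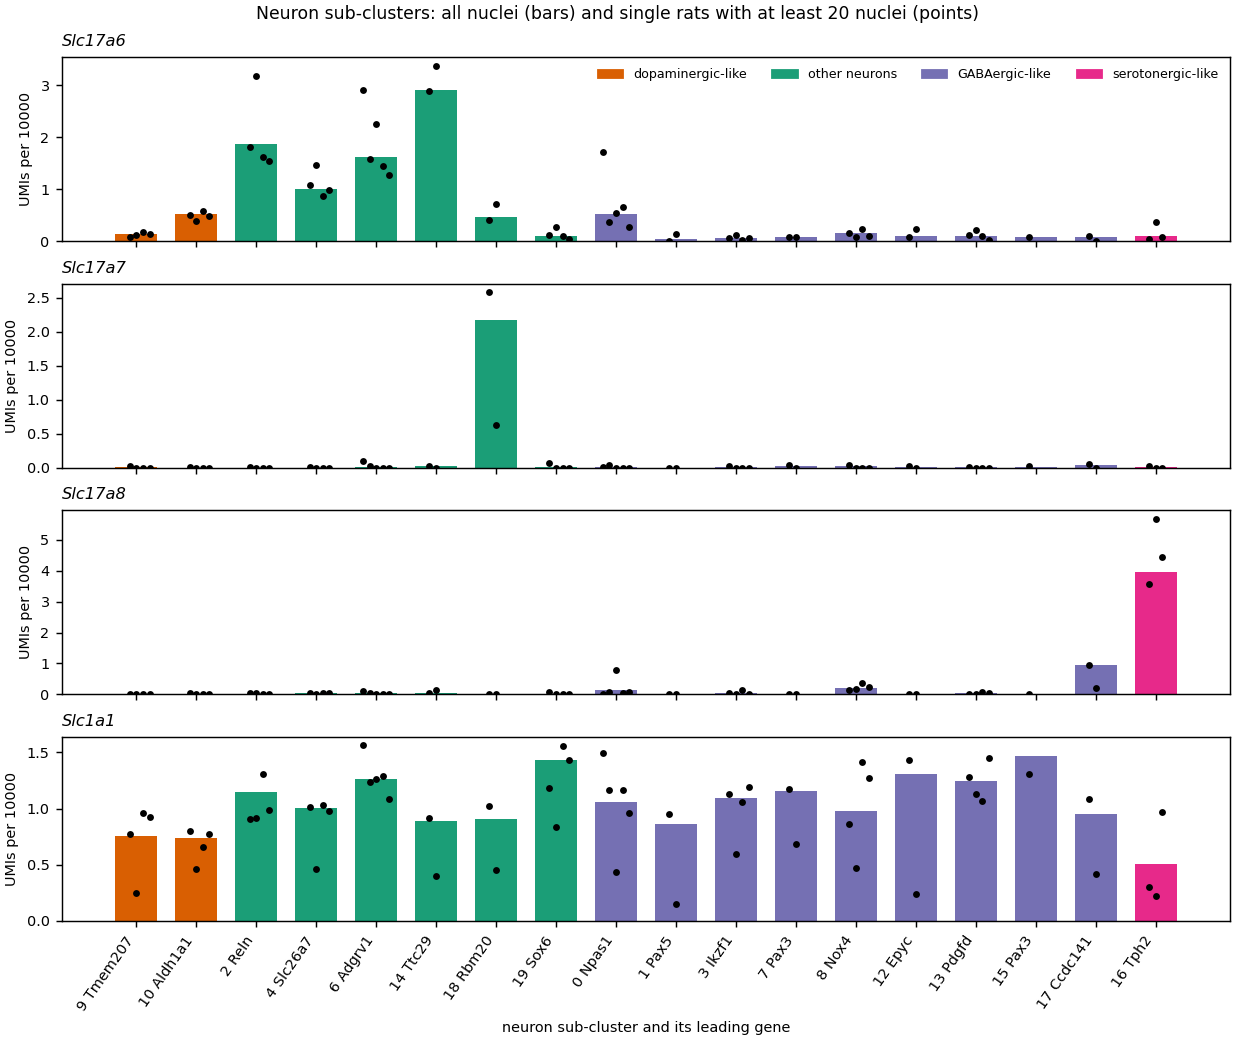
Level of the 3 vesicular transporter genes and *Slc1a1* (UMIs per 10000 UMIs, linear axes from 0) in 18 neuron sub-clusters, numbered and named by their leading gene and coloured by class, with bars for all nuclei and points for single rats with at least 20 nuclei. *Slc17a7* stood out in the *Rbm20* sub-cluster (2.17), *Slc17a8* in the *Tph2* sub-cluster (3.97), and *Slc1a1* was detected in every sub-cluster.

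*Slc17a7*, the vesicular transporter of cortical and other forebrain glutamate neurons, was scarce, with 259 UMIs in all named nuclei. In other neurons it was 0.0422, 0.370, 0.0994, 0 and 0 UMIs per 10000 in rats 1 to 5. Of its 259 UMIs, 47.9% were in other neurons, where 115 of 124 came from 113 nuclei of the sub-cluster led by *Rbm20*. That sub-cluster had 53 nuclei in rat 2, 60 in rat 3 and 0 in rats 1, 4 and 5, with levels of 2.58 and 0.63 per 10000 UMIs in rats 2 and 3, and *Slc17a7* was found in 43.4% of its nuclei. Rats 4 and 5 had no *Slc17a7* UMI in any neuron class, and their free RNA held 0.00473 and 0.00204 per 10000 UMIs against 0.109 to 0.242 in rats 1 to 3. The gene did not pass the filter on low counts in any of the 7 comparisons and has no test in them.

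*Slc17a8*, the vesicular transporter found in many serotonin neurons and in some neurons that release other transmitters, was highest in the serotonergic-like neurons, which were named from *Tph2*, *Slc6a4* and *Fev*. Its level was 3.58, 5.67 and 4.44 UMIs per 10000 in rats 2, 3 and 4, a mean of 4.56 ± 1.05 (SD, n = 3 rats), and the lowest of these was above every rat of every other class. It was detected in 59.3% of serotonergic-like nuclei (exact 95% interval 51.3% to 66.9%) against 0.696% of oligodendrocytes. These 162 nuclei held 53.1% of the *Slc17a8* UMIs of all named nuclei, and GABAergic-like neurons held 29.6%.

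In GABAergic-like neurons *Slc17a8* was 0.0293, 0.135, 0.391, 0.106 and 0.113 in rats 1 to 5, so rat 3 was highest and rat 1 lowest. These levels rest on 2, 94, 50, 32 and 40 UMIs, while dopaminergic-like neurons held 7, 1, 2 and 1 in rats 2 to 5 and other neurons 3, 10, 2, 6 and 2 in rats 1 to 5. *Slc17a8* passed the filter on low counts through the GABAergic-like sums and had no test between other and dopaminergic-like neurons, so a difference between the classes was needed for it to be tested at all, and the fitted values below are a description that rests on few UMIs in the lower class. The edgeR log2 fold change against dopaminergic-like neurons was 3.03 ± 0.360 (SE, 4 rats, adjusted p = 1.76e-05), and that of other against GABAergic-like neurons was -2.30 ± 0.349 (SE, 5 rats, adjusted p = 0.000929). When nuclei were typed one by one from their markers both turned in sign, to -0.48 (adjusted p = 0.595) and 1.10 (adjusted p = 0.0268). Over all its nuclei the sub-cluster led by *Ccdc141*, with 122 nuclei, had a level of 0.939, and 13.1% of its nuclei had a UMI. Its level was 0.947 in rat 2 and 0.210 in rat 3, whereas the sub-cluster led by *Npas1* had 0.0834 and 0.776, so that the order of this pair differed between the 2 rats.

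In few neurons were UMIs of more than 1 vesicular transporter gene found. Of 4996 neurons, 1299 (26.0%) had a UMI of at least 1 of the 3 genes, 1249 had 1 of them, 49 had a pair and 1 had all 3. At least 1 was also found in 6.70% of the shallower oligodendrocytes, 8.86% of astrocytes and 12.7% of vascular nuclei. *Slc17a6* and *Slc17a8* were found together in 27 neurons, against 52.2 expected from their shares within bins of similar UMI total. The difference was -0.346 ± 0.720 percentage points (SD, n = 5 rats) with 1 of 5 rats above 0. A two-sided exact permutation test that flips the sign of each rat gave p = 0.438 (adjusted over 9 pairs p = 0.75), and with 5 rats it cannot go below 0.062 for any pair. Pairs of *Slc17a7* with either other gene were found in 21 and 4 neurons, near the 19.8 and 4.30 expected.

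Over all neuron classes together, *Slc17a6* and the GABA genes were found together less often than expected in each rat. This is a difference that 5 rats cannot carry past an exact test. The expected shares were not taken within classes, which differ in both. *Slc17a6* was found in 46.4% of other and 10.7% of GABAergic-like neurons, and a GABA gene in 43.0% and 81.3%. Co-detection within a class was not tested. A UMI of *Slc17a6* together with 1 of *Gad1*, *Gad2* or *Slc32a1* was found in 25.2%, 12.6%, 1.69%, 13.4% and 8.42% of neurons of rats 1 to 5, against 28.5%, 16.1%, 4.01%, 18.7% and 13.5% expected. All 5 rats were below expectation, with a mean difference of -3.89 ± 1.25 percentage points (SD, n = 5 rats). It was -1.09 ± 0.240 after thinning to 1000 UMIs and -1.63 ± 2.36 when nuclei were typed one by one, for the co-detection of Slc17a6 and GABA genes in all neurons. The exact permutation test gave p = 0.062, the smallest that 5 rats allow, and 0.281 after adjustment over the 9 pairs. As counted, 461 neurons (9.23%) had both, against 1.59% of the shallower oligodendrocytes and 4.95% of vascular nuclei. Thinned, the shares were 0.681%, 0.171% and 0.943%, with 1.43% in microglia, and a pair in 1 nucleus was therefore not read as expression of both genes.

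*Slc17a6* and *Th* were found together in 505 neurons, against 483 expected when all neurons were counted together. The mean of the differences of single rats had the other sign, at -0.114 ± 1.84 percentage points (SD, n = 5 rats, exact permutation p = 0.938), with 3 of 5 rats above 0 and rat 1, with 159 neurons, at 19.5% against 22.6% expected. *Th*, the enzyme that makes the dopamine precursor, was plentiful in free RNA, at 4.81 to 9.89 per 10000 UMIs over the 5 rats. After thinning to 1000 UMIs a *Th* UMI was found in 44.5% of dopaminergic-like nuclei. It was found in 12.1% of other neurons and 6.10% of GABAergic-like neurons against 11.6% of oligodendrocytes, so *Th* in either class as a whole was not read as expression. Sub-clusters of other neurons differed, with thinned shares of 21.0% (*Slc26a7*), 14.3% (*Adgrv1*), 11.3% (*Reln*) and 7.85% (*Ttc29*). In the *Slc26a7* sub-cluster *Th* was 3.13, 3.01, 0.880 and 2.25 per 10000 UMIs in rats 2 to 5, and its source was not tested. Both genes were found in 121 of 914 dopaminergic-like nuclei (13.2%), 306 of 1348 other neurons (22.7%), 1.61% of oligodendrocytes and 6.37% of vascular nuclei as counted. Thinned, these shares were 0.875%, 1.63%, 0.148% and 2.12%, and a pair in 1 nucleus was not read as expression of both genes.

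**Figure D3:**
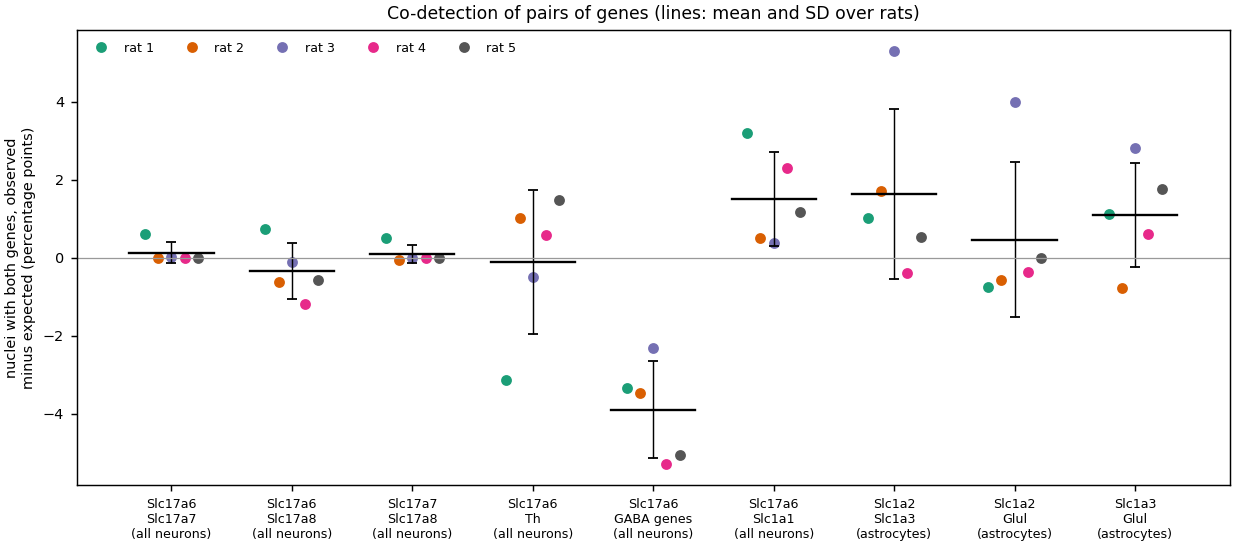
Share of nuclei in which both genes of a pair were found minus the share expected within bins of UMI total (percentage points), for 6 pairs in all neurons and 3 in astrocytes, with 1 point per rat and the mean and SD over rats. GABA genes are any of *Gad1*, *Gad2* and *Slc32a1*, and that pair lay below 0 in all 5 rats, whereas *Slc17a6* with *Slc1a1* lay above 0 in all 5.

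*Slc1a1*, the glutamate and cysteine transporter EAAC1, was found in all neuron classes but was highest in OPCs, the dividing glia that give rise to oligodendrocytes. In OPCs of rats 1 to 5 it was 4.06, 3.47, 1.56, 4.15 and 4.40 UMIs per 10000, a mean of 3.53 ± 1.15 (SD, n = 5 rats), and in neurons of all classes it was 1.41, 1.0, 0.491, 1.15 and 1.01. Rat 3 was lowest in both, and every rat of the OPCs was above every rat of the neurons. *Slc1a1* was found in 67.9% of OPCs, 38.3% of neurons and 7.57% of astrocytes, and thinned to 1000 UMIs in 30.8%, 8.31% and 1.89%. Thinned shares were 9.27% in other, 8.98% in GABAergic-like, 5.91% in dopaminergic-like and 3.09% in serotonergic-like neurons. They were 2.37% in oligodendrocytes, 3.17% in microglia and 5.66% in vascular nuclei. Free RNA held *Slc1a1* at 0.459 to 1.01 per 10000 UMIs, and its share in serotonergic-like neurons was not read as expression.

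Among neurons *Slc1a1* was 0.678 ± 0.258 in dopaminergic-like (SD, n = 4 rats), 1.06 ± 0.349 in GABAergic-like and 1.13 ± 0.299 in other neurons (SD, n = 5 rats). Dopaminergic-like neurons were lowest of the 3 in each of their 4 rats. The edgeR log2 fold change was 0.50 ± 0.0965 (SE, adjusted p = 0.00130) for GABAergic-like and 0.57 ± 0.121 (SE, adjusted p = 0.00285) for other neurons against dopaminergic-like neurons, and other and GABAergic-like neurons differed by 0.09 ± 0.0909 (adjusted p = 0.837). With no rat block the first 2 did not pass (adjusted p = 0.738 and 0.498). Over 16 alternative settings the first passed in 13 (log2 fold change 0.40 to 0.59) and the second in 12 (0.14 to 0.66, highest adjusted p = 0.751). Both kept their sign in all 16. *Slc1a1* was found with *Slc17a6* in 555 neurons against 508 expected, above expectation in all 5 rats by 1.51 ± 1.21 percentage points (exact permutation p = 0.062, adjusted over the 9 pairs p = 0.281). In nuclei thinned to 1000 UMIs the sign turned, to -0.26.

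In edgeR, *Slc1a1* was higher in OPCs than in oligodendrocytes by a log2 fold change of 2.99 ± 0.187 (SE, 5 rats, adjusted p = 6.36e-08) and lower in astrocytes than in OPCs by -4.09 ± 0.211 (adjusted p = 2.78e-08). Astrocytes had the lowest mean of all classes, 0.212 ± 0.0492 (SD, n = 5 rats).

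The *Slc1a1* UMIs of oligodendrocytes were held by a small share of that class. A cluster of 298 nuclei led by *Rras2*, singled out after its values were seen, made up 3.4% of the oligodendrocytes and held 68.7% of their *Slc1a1* UMIs. In rats 2 to 5 the level in this cluster was 4.07, 2.83, 5.35 and 3.84, and in the other oligodendrocytes of rats 1 to 5 it was 0.138, 0.157, 0.0331, 0.132 and 0.139. The sets did not overlap, and the cluster lay within the range of the OPCs apart from rat 4.

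The *Rras2* cluster was mixed in the genes of the OPC list. *Mbp*, a myelin protein gene, was 76.5 ± 7.32 there and 78.7 ± 4.18 in the other oligodendrocytes. The extracellular matrix genes *Tnr* and *Vcan*, which are on the OPC list, were 23.3 ± 8.23 and 8.63 ± 0.362 against 0.127 ± 0.0272 and 0.621 ± 0.175, whereas *Pdgfra*, the growth factor receptor that defines OPCs, was 0.253 ± 0.217 against 10.4 ± 1.23 in OPCs. *Tcf7l2*, a transcription factor of oligodendrocyte maturation and a leading gene of the cluster, was 8.73 ± 1.98 (SD, n = 4 rats in the cluster and 5 in the other sets). These means cover unlike nuclei. *Mbp* was found in 293 of the 298 nuclei, *Tnr* and *Vcan* in 164 each and *Slc1a1* in 174. In OPCs *Tnr* and *Vcan* were found in 92.7% and 92.8% of nuclei. *Mbp* was found in 90.1% of OPCs too, at a level of 19.4 ± 13.9 (SD, n = 5 rats). Its detection in a nucleus thus did not tell oligodendrocytes from OPCs. The 134 nuclei with UMIs of both *Tnr* and *Vcan* held 68.1% of the *Slc1a1* UMIs of the cluster, at 7.95 per 10000 UMIs, and the 104 nuclei with neither held *Slc1a1* at 2.57, with a UMI in 43.3% of them, a split made after the values were seen.

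*Slc1a3* and *Glul* were low in these nuclei, while *Slc1a2* was 0.0682 ± 0.0471 there and 0.0829 ± 0.0489 in the other oligodendrocytes. *Slc1a3* was 0.535, 0.848, 0.229 and 0.737 in rats 2 to 5 of the *Rras2* cluster, against 2.82 to 3.19 in the other oligodendrocytes and 2.33 to 3.09 in OPCs. *Glul* was 0.424 to 0.848 in the cluster, 2.21 to 4.11 in the other oligodendrocytes and 0.410 to 0.940 in OPCs. For *Slc1a3* the cluster was thus below both other sets with no overlap, and for *Glul* it overlapped with OPCs. With the cluster left out of the oligodendrocytes, an alternative added after the data were seen, the edgeR log2 fold change of *Slc1a1* in OPCs against oligodendrocytes was 4.76, and that of astrocytes against oligodendrocytes turned from -1.04 (adjusted p = 0.00135) to 0.50 (adjusted p = 0.0961). The other oligodendrocytes were not uniform in *Slc1a3*. Cluster means ranged from 2.25 ± 0.331 in that led by *LOC100302465* (SD, n = 3 rats) to 4.92 ± 0.245 in that led by *Bace2* (SD, n = 4 rats).

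**Figure D4:**
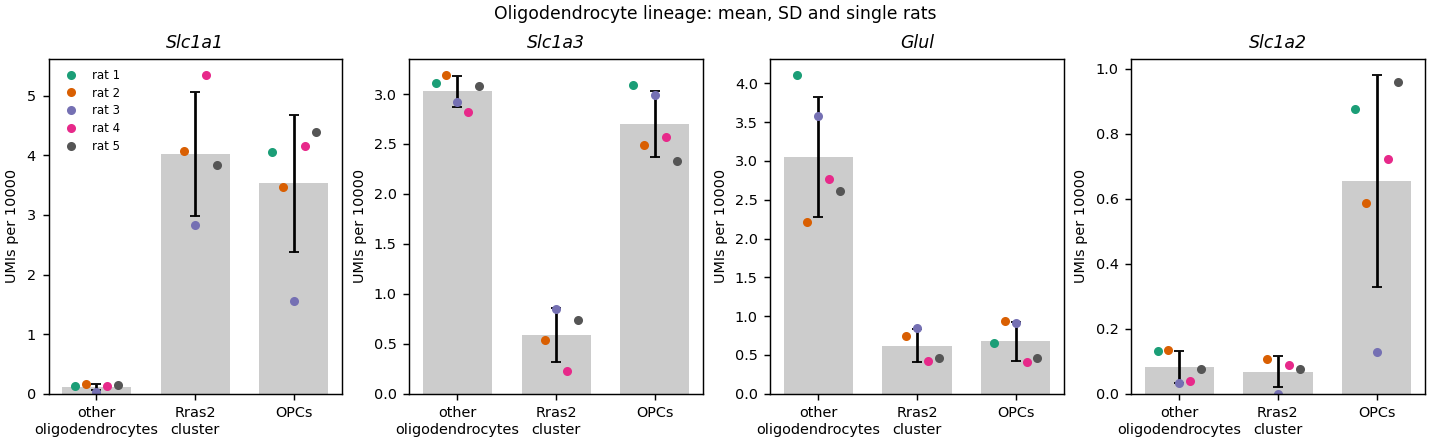
Level of *Slc1a1*, *Slc1a3*, *Glul* and *Slc1a2* (UMIs per 10000 UMIs, linear axes from 0) in the other oligodendrocytes, the *Rras2* cluster and OPCs, with bars and error bars for the mean and SD over rats and 1 point per rat with at least 20 nuclei. The *Rras2* cluster was high in *Slc1a1* (4.02) and low in *Slc1a3* (0.587) and *Glul* (0.621).

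*Slc1a2* (GLT-1), *Slc1a3* (GLAST) and *Glul* make up the astrocyte side of glutamate clearance. The stretches of DNA around a transcription start of each, from 250 bases before to 50 after it, are shown because these 3 genes share a class in which they were high. They are RefSeq sequences of the rat build GRCr8, read 5′ to 3′ on the strand of the gene, and were not measured here. Capitals mark the TATA box (letters TATAAA), the CCAAT box and the GC box (letters GGGCGG) on either strand, which do not overlap one another in these windows.

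*Slc1a2*, chr3:109459859-109460158, plus strand: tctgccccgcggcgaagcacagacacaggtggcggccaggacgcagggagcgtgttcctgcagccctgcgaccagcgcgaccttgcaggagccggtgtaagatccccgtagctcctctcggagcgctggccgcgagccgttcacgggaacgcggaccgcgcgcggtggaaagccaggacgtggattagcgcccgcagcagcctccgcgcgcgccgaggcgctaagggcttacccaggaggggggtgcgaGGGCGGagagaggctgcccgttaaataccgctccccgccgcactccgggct
*Slc1a3*, chr2:59557759-59558058, minus strand: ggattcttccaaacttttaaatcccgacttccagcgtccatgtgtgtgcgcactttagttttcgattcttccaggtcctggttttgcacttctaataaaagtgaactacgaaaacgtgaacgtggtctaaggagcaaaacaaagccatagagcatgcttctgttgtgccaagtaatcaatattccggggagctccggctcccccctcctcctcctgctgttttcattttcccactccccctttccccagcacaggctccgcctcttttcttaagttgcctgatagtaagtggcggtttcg
*Glul*, chr13:68575816-68576115, plus strand: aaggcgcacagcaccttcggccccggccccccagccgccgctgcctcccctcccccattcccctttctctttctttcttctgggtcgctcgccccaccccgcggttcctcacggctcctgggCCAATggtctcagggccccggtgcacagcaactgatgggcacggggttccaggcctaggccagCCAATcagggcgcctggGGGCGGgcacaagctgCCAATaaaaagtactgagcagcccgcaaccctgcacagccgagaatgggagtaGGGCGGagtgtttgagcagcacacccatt

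The windows held 1 GC box in *Slc1a2*, none of the 3 motifs in *Slc1a3*, and 3 CCAAT boxes and 2 GC boxes in *Glul*. Of all 33469 start windows of this length, 14.2% held a TATA box, 37.5% a CCAAT box and 33.1% a GC box. The *Slc1a2* window was 71.0% G and C, against a median of 51.7% over all windows. The choice among listed starts followed no rule. The second listed start of *Slc1a2* held none of the 3 motifs and was 46.3% G and C. The first of *Glul* held 1 CCAAT box and 1 GC box and was 54.7% G and C. The other 2 of *Slc1a3* held none, but their windows overlap the printed one in most of its bases. A window was found for 6 of the 7 genes.

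Astrocytes held 75.4% of the *Slc1a2* UMIs of all named nuclei. Its level in astrocytes of rats 1 to 5 was 10.1, 6.90, 2.98, 8.54 and 6.84 UMIs per 10000, a mean of 7.08 ± 2.67 (SD, n = 5 rats), and the next class, vascular nuclei, had 0.832 ± 0.289. Rat 3 was lowest in astrocytes and still above every rat of every other class. The edgeR log2 fold change in astrocytes was 5.55 ± 0.258 against all neurons (adjusted p = 8.06e-08), 6.46 ± 0.284 against oligodendrocytes (adjusted p = 7.57e-09) and 3.42 ± 0.194 against OPCs (SE, 5 rats, adjusted p = 5.18e-08).

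OPCs held *Slc1a2* at 0.875, 0.586, 0.130, 0.721 and 0.959 per 10000 UMIs, above oligodendrocytes by an edgeR log2 fold change of 2.96 ± 0.294 (adjusted p = 3.06e-06). It was found in 69.7% of astrocytes, 21.3% of OPCs, 7.35% of neurons and 2.68% of oligodendrocytes. Neuron classes had means of 0.103 to 0.192, and none of the 3 comparisons between neuron classes passed the edgeR test for *Slc1a2*.

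*Slc1a3* was highest in astrocytes too, but was found in all glial classes. In astrocytes it was 16.3, 10.8, 6.71, 12.3 and 12.4 UMIs per 10000 in rats 1 to 5, a mean of 11.7 ± 3.47, and in microglia it was 5.17, 5.90, 3.13, 5.36 and 7.91, a mean of 5.49 ± 1.71 (SD, n = 5 rats). Astrocytes were higher in every rat, although microglia of rat 5 lay above astrocytes of rat 3. Oligodendrocytes (2.86 ± 0.157), OPCs (2.70 ± 0.330) and vascular nuclei (2.34 ± 0.673) overlapped in their ranges over rats. All of them lay above every neuron class, whose means were 0.171 to 0.325. The edgeR log2 fold change of *Slc1a3* in OPCs against oligodendrocytes was -0.28 ± 0.121 (SE, 5 rats, adjusted p = 0.0753) and did not pass. It kept its sign in all 17 alternative settings and stayed short of the threshold in 11 of them.

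The edgeR log2 fold change of *Slc1a3* in astrocytes was 5.42 ± 0.329 against all neurons (adjusted p = 2.29e-07), 1.94 ± 0.188 against oligodendrocytes (adjusted p = 3.80e-06) and 2.15 ± 0.192 against OPCs (SE, 5 rats, adjusted p = 1.61e-06). Oligodendrocytes, the largest class, held 50.9% of all *Slc1a3* UMIs and astrocytes 30.9%. It was found in 83.7% of astrocytes, 61.0% of microglia, 47.8% of oligodendrocytes and 12.7% of neurons. After subtraction of free RNA the mean level was 5.91 in microglia. In all neurons it was 0.0563, from 0.282 in rat 1 and 0 in rats 2 to 5. The estimate from oligodendrocytes was used for all classes and negative values were set to 0, so this was not read as absence.

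*Glul* was not confined to astrocytes. In oligodendrocytes of rats 1 to 5 it was 3.88, 2.12, 3.29, 2.64 and 2.51 UMIs per 10000, a mean of 2.89 ± 0.699, and in astrocytes it was 2.70, 1.91, 1.26, 2.21 and 2.38, a mean of 2.09 ± 0.546 (SD, n = 5 rats). Oligodendrocytes were higher than astrocytes in each of the 5 rats, while the ranges of the classes overlapped. The edgeR log2 fold change of astrocytes against oligodendrocytes was -0.45 ± 0.171 (SE, adjusted p = 0.0505), just short of the threshold. It passed under 14 of 17 alternative settings and kept its sign in all of them (-0.61 to -0.33, adjusted p = 0.000930 to 0.174).

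Vascular nuclei (2.61 ± 0.819) and microglia (1.71 ± 0.797) had *Glul* levels near those of astrocytes, in an order that did not exceed the spread. In every rat free RNA held *Glul* above all of these classes, at 3.56 to 5.16 per 10000 UMIs, and after its subtraction the means were 2.70 in oligodendrocytes, 2.39 in vascular nuclei, 1.82 in astrocytes and 1.39 in microglia. OPCs were lower, at 0.675 ± 0.247, with an edgeR log2 fold change of -2.24 ± 0.208 against oligodendrocytes (adjusted p = 1.72e-06) and of 1.80 ± 0.238 for astrocytes against OPCs (adjusted p = 4.81e-05). Neuron classes had means of 0.207 to 0.373. Against all neurons, astrocytes were higher by 2.81 ± 0.262 on the log2 scale (edgeR adjusted p = 4.20e-06).

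In astrocytes the counts of nuclei with a pair of the 3 genes were set beside those expected from their shares. All 3 were found in 381 of 1162 astrocytes (32.8%) and at least 1 in 92.8%, against 0.879% and 71.1% of oligodendrocytes. *Slc1a2* and *Slc1a3* were together in 735 astrocytes against 717 expected, *Slc1a2* and *Glul* in 408 against 408, and *Slc1a3* and *Glul* in 472 against 468. The differences were 1.64 ± 2.18, 0.464 ± 1.99 and 1.10 ± 1.33 percentage points (SD, n = 5 rats), and the exact permutation test, which 5 rats cannot carry past the threshold, gave p = 0.125, 1 and 0.188.

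**Figure D5:**
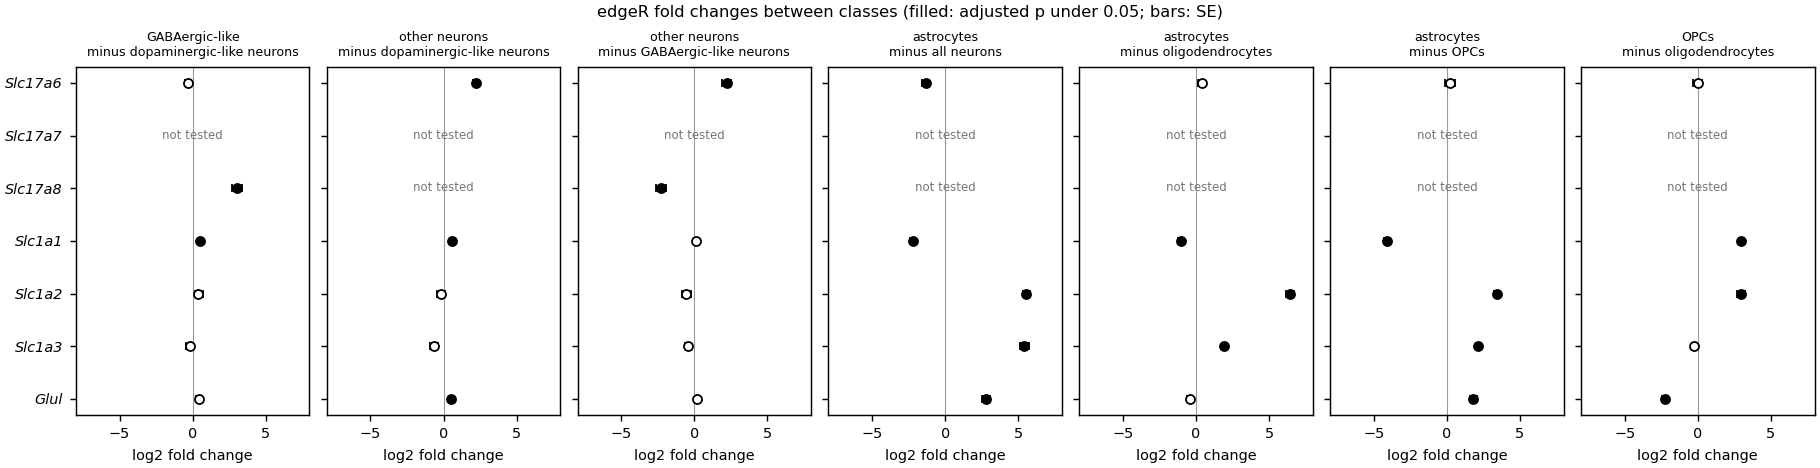
edgeR log2 fold change and SE of the 7 genes in 7 comparisons of classes, with filled points for adjusted p under 0.05, open points for the others and the words not tested where a gene did not pass the filter on low counts. *Slc1a2*, *Slc1a3* and *Glul* were to the right of 0 in astrocytes against neurons (5.55, 5.42 and 2.81) and *Slc1a1* and *Slc17a6* to the left (-2.22 and -1.32).

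Counted over the 7 comparisons, the genes can be set beside all genes tested. In GABAergic-like against dopaminergic-like neurons 2 of the 6 members tested were higher (*Slc1a1* and *Slc17a8*, which passed the filter through the class where it was high) and 0 lower, while 26.5% of 11308 genes passed (14.8% higher and 11.7% lower). For other against dopaminergic-like neurons 3 of 5 were higher (*Slc17a6*, *Slc1a1* and *Glul*) and 0 lower, with 21.3% of 10496 genes called (11.9% higher and 9.43% lower). The *Glul* value there was 0.54 ± 0.175 (SE, edgeR adjusted p = 0.0380) and was past the threshold under 3 of 15 alternatives. After subtraction of free RNA the *Glul* level of other neurons was 0.0484 and that of dopaminergic-like neurons was 0. The subtraction used the estimate from the shallower oligodendrocytes and set negative values to 0, so these values were not read as absence. For other against GABAergic-like neurons 1 of 6 was higher and 1 lower (*Slc17a8*, with the same limit), where 7.22% of 11340 genes were called (4.18% higher and 3.04% lower).

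Between astrocytes and all neurons all 5 members tested passed, 3 higher and 2 lower in astrocytes (*Slc17a6* at -1.32 ± 0.243, adjusted p = 0.000741, and *Slc1a1* at -2.22 ± 0.202, adjusted p = 3.50e-06), but so did 51.3% of 10986 genes (24.5% higher and 26.8% lower). Against oligodendrocytes 2 of 5 were higher and 1 lower in astrocytes (46.4% of 10221 genes, 26.2% higher and 20.1% lower). Against OPCs 3 of 5 were higher and 1 lower (38.2% of 8175 genes, 19.5% higher and 18.7% lower). OPCs against oligodendrocytes gave 2 of 5 higher and 1 lower (49.5% of 9137 genes, 23.5% higher and 26.0% lower), and the median of all genes was -0.10 there. *Slc17a8* had no test in 5 of the 7 comparisons.

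Of 19 other genes of glutamate and glutamine handling, 14 were tested between astrocytes and neurons. In astrocytes 6 were higher and 5 lower and 3 did not pass, where 24.5% of all genes were higher and 26.8% lower, with a median log2 fold change of -0.12 against -0.01 over all genes tested. Higher were the mitochondrial glutamate carrier *Slc25a18* (6.47), the glutamine exporter *Slc38a3* (5.79), the cystine and glutamate exchanger *Slc7a11* (3.52), glutamate dehydrogenase *Glud1* (2.43), the aspartate and glutamate carrier *Slc25a13* (2.29) and the neutral amino acid transporter *Slc1a4* (1.16). Among the lower genes were *Gls2* (-3.17), which makes glutamate from glutamine, and the glutamine importer *Slc38a1* (-0.97). Each of these 8 named genes passed the edgeR test (adjusted p of at most 0.0159), and the list was chosen with earlier results of these data known.

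Against oligodendrocytes 7 of 15 were higher and 4 lower in astrocytes, and against OPCs 6 of 14 were higher and 4 lower, beside 46.4% and 38.2% of all genes called in either direction. Their medians were 0.32 and 0.32, beside 0.07 and 0.04 over all genes. *Slc25a13* and the amino acid transporter *Slc38a2* were lower in astrocytes than in oligodendrocytes, by -2.44 and -2.15. In OPCs against oligodendrocytes 5 of 14 were higher and 4 lower, beside 49.5% of all genes called, with a median of -0.07. *Slc38a1* and *Slc38a3* were higher in OPCs by 2.19 and 3.06.

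In both GABAergic-like and other neurons against dopaminergic-like neurons 5 of 12 were higher and 1 lower, beside 26.5% and 21.3% of all genes called, *Slc7a11* most, at 2.64 and 2.27, with medians of 0.05 and 0.08 beside 0.05 and 0.04 over all genes. In other against GABAergic-like neurons 0 of 13 passed in either direction by edgeR, and 0 by DESeq2, while 1 had an unadjusted p under 0.05 by each, and over all genes 7.22% were called. *Slc1a7*, *Slc25a22* and *Slc38a5* were tested in none of the 7 comparisons.

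The genes whose levels were most like each member over the 42 sums of a rat and a class were listed by Pearson's r, among 12840 genes, as a description. The sums share rats, libraries and marker-defined classes. *Slc17a8* was closest to the serotonin transporter gene *Slc6a4* and to *Gata3* (r = 0.834 for both), and then to *Otof* (0.784). These genes were all among the leading genes of the serotonergic-like sub-cluster led by *Tph2*. *Gata3* was also among those of the GABAergic-like sub-cluster led by *Ccdc141*. *Slc1a1* was closest to *Tnr* (0.894), *AABR07021536.1* (0.893) and *Armh4* (0.874).

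*Slc1a2* was closest to *Plcd4* (0.928), *Atp13a4* (0.916) and *Heyl* (0.904). *Slc1a3* was closest to *Abca1* (0.918), *Tcf7l2* (0.904) and *Rab31* (0.903), and *Glul* to *Selenop* (0.923), *Plaat3* (0.919) and *Prrg1* (0.919). The correlations were weaker for *Slc17a6*, with *Ebf3* (0.678), *Kcnk12* (0.677) and *Adcyap1* (0.662), and for *Slc17a7*, with *Ttc29* (0.594), *Sdhc* (0.594) and *Endog* (0.583).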

How the data were processed

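Per the labels and the study's methods, nuclei were isolated from frozen VTA punches of 5 rats and run on a droplet 3′ assay. The deposited files are unfiltered tables of UMI counts per gene and barcode, which the authors made with Cell Ranger (version 8.0.1 in the submitters' processing notes, but version 4 in the headers of all 5 matrices). Which version made the counts, whether reads in introns were counted, the genome build and the annotation are not given in the sources used here.

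Doublets were taken as the highest Scrublet scores of each library, 0.8% per 1000 nuclei, because the automatic threshold marked too few. Nuclei were clustered in scanpy 1.11.5 (2000 variable genes, 30 components, resolution 1) without the 7 genes and the 19 pathway genes. Sums of at least 20 nuclei were tested in edgeR 4.0.16 (R 4.3.3; TMM, quasi-likelihood, filterByExpr, rat as a block, Benjamini-Hochberg adjustment over all genes, threshold 0.05), and the code was tested on simulated data. Both classes of a comparison come from the same rats, and their deviations correlated within rats (r = 0.371 to 0.930). Free RNA was read from barcodes ranked 45000 to 90000 by UMIs. For its subtraction the oligodendrocyte estimate of each rat was applied to all classes, and negative values were set to 0. The 4265 nuclei without a clear class were left out.

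Named were the 7 genes, the pathway list and, for each gene, the 3 genes most correlated on log2(UMIs per 10000 + 0.1) among genes with 200 UMIs, with leading genes of clusters. The values of 1 gene of the pathway list are not reported here. The genes and lists were chosen with earlier results of these data known. Alternatives covered normalization, DESeq2 1.42.0, filters, the block, free RNA, doublets, depth, typing by nucleus and leaving out each rat. The alternatives with 10 components, with neuron sub-clusters rich in glial RNA, and without the *Rras2* cluster were chosen after seeing the data. Intervals are exact (Clopper-Pearson, 95%) and cover counting error only.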

Additional observations from a re-analysis of the deposited data

Results flagged for a closer look

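Of 63 groups of a gene and a class tested for a sample far from the others by Dixon's criterion, 14 had one, and chance gives about 1 in 20 groups. The groups are not independent, since they share rats and all neurons hold the neuron classes. No explanation was tested.

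*Slc17a6* in GABAergic-like neurons was 1.38 UMIs per 10000 in rat 1, from 94 UMIs in 90 nuclei, against 0.178 to 0.406 in the other rats. In rat 1, 3121 of 5218 barcodes with at least 1000 UMIs were over the mitochondrial limit, against 3514 of 13176 in rat 2 and 18 of 2305 in rat 3. Of the 1787 nuclei of rat 1 after doublet removal, 1019 were left without a class. *Slc17a7* was farthest from the rest in rat 2, at 0.0154 in dopaminergic-like neurons, 0.370 in other neurons, 0.0881 in astrocytes, 0.0583 in oligodendrocytes and 0.111 in all neurons. The value in dopaminergic-like neurons came from 4 UMIs. *Slc17a7* in vascular nuclei was 0.240 in rat 3, from 1 UMI.

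*Slc17a8* was high in rat 3, at 0.474 in microglia (10 UMIs in 75 nuclei), 0.481 in vascular nuclei (2 UMIs in 22 nuclei) and 0.558 in all neurons, against 0.0482 to 0.192 in all neurons of the other rats. *Slc1a1* was low in rat 3 in dopaminergic-like neurons, at 0.294 against 0.784 to 0.845. It was low in rat 4 in astrocytes, at 0.126 from 7 UMIs, and high in rat 1 in oligodendrocytes, at 0.752 against 0.318 to 0.413. *Glul* in microglia was 3.11 in rat 1, from 38 nuclei, against 1.14 to 1.5 in the other rats.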

How the results depend on the processing

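Without the replicate block the genes called fell from 2997 to 677 for GABAergic-like against dopaminergic-like neurons, from 2237 to 456 for other against dopaminergic-like and from 819 to 94 for other against GABAergic-like neurons. Likewise astrocytes against neurons went from 5641 to 3502, against oligodendrocytes from 4738 to 2897 and against OPCs from 3120 to 1715, and OPCs against oligodendrocytes from 4521 to 2833. In the first 3 comparisons all classes in 1 fit gave 1844, 1448 and 442 calls, and typing each nucleus by its own markers gave 1162, 855 and 154. Keeping neuron sub-clusters rich in glial RNA gave 1654 and 1257 in the first 2, DESeq2 gave 1437 in the second, and in the third no filter gave 1299 and 10 components 400. Leaving out 1 rat gave 1943 (without rat 2) to 2790 in the first and 539 (without rat 4) to 905 in the third. The cause of these shifts was not tested.

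Of 1220 alternative values for single genes, 1100 kept direction and call and 8 turned in sign. Typing each nucleus by its own markers turned *Slc17a8* in GABAergic-like against dopaminergic-like (-0.48) and in other against GABAergic-like neurons (1.10), *Glul* in other against dopaminergic-like neurons (-0.038), *Slc1a1* in astrocytes against oligodendrocytes (0.014) and *Slc17a6* in OPCs against oligodendrocytes (0.63). *Slc1a1* in astrocytes against oligodendrocytes also turned with a minimum of 2000 UMIs (0.22) and without the *Rras2* cluster (0.50), and *Slc1a3* in other against GABAergic-like neurons with the sub-clusters rich in glial RNA (0.73).

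The *Slc17a6* level in dopaminergic-like neurons was 0.409 with doublets kept, 0.404 with 2000 UMIs, 0.416 with no maximum of genes, 0.397 with the held-out genes in the clustering, 0.923 with own markers, 0.403 with 10 components, 0.600 with the sub-clusters rich in glial RNA and 0.177 after subtraction of free RNA. With own markers *Slc17a8* in serotonergic-like neurons was 3.35 and *Slc1a3* in OPCs 1.84, and 10 components gave 2.20 for the latter. The co-detection of Slc17a6 and Th in all neurons became -1.99 with own markers, the co-detection of Slc17a6 and GABA genes in all neurons -1.63 with own markers and -1.09 after thinning, and the co-detection of Slc17a6 and Slc1a1 in all neurons -0.263 after thinning. No serotonergic-like class arose with no maximum of genes. *Slc17a7* had 259 UMIs in all named nuclei, and shares near those in oligodendrocytes were not read as expression.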

Other observations

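The 4265 nuclei left without a class held all 7 genes. *Slc17a6* was 1.16 ± 0.856 UMIs per 10000 there (SD, n = 5 rats, 0.590 to 2.66), *Slc1a3* was 1.71 ± 0.834 and *Glul* was 2.35 ± 1.65, with a median of 1437 UMIs per nucleus. *Slc1a2* was 0.367 ± 0.2, *Slc1a1* 0.730 ± 0.220, *Slc17a8* 0.181 ± 0.0669 and *Slc17a7* 0.0807 ± 0.106. The largest cluster left out, 1756 nuclei with 1307 from rat 2, had the dopaminergic markers *Slc6a3* and *Th* among its leading genes. *Slc17a6* was 1.98 ± 2.03 in that cluster (SD, n = 4 rats). A neuron sub-cluster of 481 nuclei left out for glial RNA held *Th* at 6.35 and *Slc17a6* at 0.898 over all its nuclei.

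In the pair of dopaminergic-like sub-clusters *Slc1a2* was higher in that led by *Aldh1a1* in 4 of 4 rats, with means of 0.196 and 0.0331 per 10000 UMIs, and *Slc1a1* was 0.673 and 0.729. These are descriptions of clusters made from the same nuclei and carry no test.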
